A study of Mus musculus with 15 samples.

Results

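The bone morphogenetic protein (BMP) pathway was followed through 10 genes in green fluorescent cells sorted from the neonatal mouse kidney. They are the ligands Bmp2, Bmp4, Bmp5 and Bmp7, the extracellular modulators Bmper, Chrdl1 and Nog, the type I receptors Bmpr1a and Bmpr1b, and the pseudoreceptor Bambi. A gene was taken as a member where its symbol is on this list and a probe set maps to that symbol alone. All 10 were found among the 19938 genes measured, each by 1 probe set.

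The mice carried Tg(Crym-EGFP)82Gsat, a bacterial artificial chromosome transgene in which Crym sequence drives EGFP, on a CD-1 background, and their sex is labelled unknown. Pups were moved to CD-1 foster mothers at embryonic day 18.5, and each sample came from the fluorescent cells of a pool of about 4 kidneys. There were 15 samples, 3 at each of postnatal days P0, P1, P2, P3 and P4, and none of the groups lacked the transgene. The P0 to P3 samples are labelled cap mesenchyme and the P4 samples renal vesicle, while the series' own design text names cap mesenchyme alone, and the sort gate at P4 was not found in the sources used here. Compartment label and age therefore change together at P4 and cannot be told apart.

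BMPs are secreted dimers that bind type I and type II serine/threonine kinase receptors, after which the type I receptor phosphorylates SMAD1, SMAD5 and SMAD9 and these enter the nucleus with SMAD4. Secreted proteins such as noggin and the chordin family hold the ligands away from their receptors, and Bambi resembles a type I receptor that lacks the kinase. In the developing kidney the cap mesenchyme holds the nephron progenitors, which condense into pretubular aggregates and then epithelial renal vesicles as nephrons form. Bmp7 is known for supporting those progenitors, and Bmp4 for limiting outgrowth of the ureteric bud.

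The deposited values are log2 signals of 1-colour arrays, so that 1 unit is a doubling of signal. In the limma tests each probe set was compared only with itself across days. The slope differences and the marker sums given below take in several probe sets. The array medians lay between 6.80 and 6.92. The first replicates of all 5 days stood apart from the others, with an interquartile range of 2.14 to 2.27 over all probe sets against 2.52 to 2.77 in replicates 2 and 3. In bulk samples of this kind fewer cells of a type and less RNA per cell cannot be told apart. The labels were checked with Crym, the source of the transgene promoter, which at P4 fell by 3.57 on the log2 scale against P0 to P3 (SE 0.14, limma adjusted p = 3.85e-09), and with Six2, a transcription factor of nephron progenitors, which fell by 2.15 (SE 0.16, limma adjusted p = 1.39e-06). Jag1, a Notch ligand, and Lhx1, a LIM homeobox factor, both of the renal vesicle, were 2.30 and 2.16 higher at P4 (SE 0.22 and 0.34, limma adjusted p = 1.17e-05 and 0.001). Of the cap mesenchyme markers 8 of 10 fell at P4 against P0 to P3. Of the renal vesicle markers 8 of 10 rose in that comparison and 6 of 10 had already risen along P0 to P3. Against P3 alone, 5 of 10 cap mesenchyme markers fell and 1 of 10 renal vesicle markers rose, where limma called 1.49% of all genes. Jag1 and Lhx1 did not pass against P3 with any 1 sample left out (limma adjusted p at least 0.206 and 0.709). Along P0 to P3, 5 of 10 cap mesenchyme markers and 3 of 10 stroma markers fell, and 1 of 3 podocyte markers tested rose. Of all genes tested, limma called 5.73% at P4 against P0 to P3 and 3.13% for the slope over P0 to P3.

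Summed marker signals of other kidney cells moved at P4 too. The summed signal of the podocyte list was 10.32 to 10.81 (log2) at P4 against 9.40 to 10.14 on the 12 earlier arrays, that of the ureteric bud list 10.46 to 10.77 against 9.73 to 10.19, that of the proximal tubule list 9.99 to 10.14 against 9.52 to 9.80 and that of the distal tubule and loop of Henle list 9.87 to 10.17 against 8.92 to 9.45. The stroma list summed to 11.50 to 11.70 at P4 against 11.71 to 12.58 before. Such sums follow the brightest genes most and take in genes under the filter. Taken singly, 2 of 5 podocyte, 3 of 9 ureteric bud, 3 of 7 proximal and 1 of 6 distal genes had every P4 sample above the 12 earlier ones. For stroma, 2 of 10 genes had every P4 sample below them. Over all genes tested, 3.78% were entirely above or below. The stroma and podocyte sums had moved before P4. Stroma was at 12.32 to 12.58 at P0 and 11.71 to 11.99 at P3, and podocyte at 9.51 to 9.58 and 9.93 to 10.14. The ureteric bud, proximal tubule and distal tubule sums overlapped between P0 and P3. The macrophage list, at 9.17 to 9.24 against 8.84 to 9.42, overlapped between the groups, as did the erythroid gene on the array, and 0 of 6 endothelial markers were above the filter on low values. The part of these cells in the differences described next was not tested.

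Of the 10 members, 7 were above the median of all values (log2 6.86) on at least 3 arrays and were among the 11885 genes tested. Bmp5, Chrdl1 and Nog were above it on 0 arrays and are described by their values alone. The limma values are from a model without the replicate number, unpaired, unless a block is named. Over all 5 days the limma F test called Bmp2 (adjusted p = 7.09e-06), Bmp4 (adjusted p = 0.000594) and Bmpr1b (adjusted p = 0.0392), which is 3 of 7 against 5.37% of all genes tested. Along P0 to P3 the slope was called for the same 3 members, all upward, where 3.13% of all genes were called, 196 up and 176 down. The median slope was 0.18 log2 units per day over the 7 members and -0.01 over all genes. At P4 against P0 to P3, 2 members were called, Bmp2 and Bmp4, both higher, with a background of 5.73% (405 higher and 276 lower). The median difference was 0.37 over the 7 members and 0.00 over all genes. Both member medians are the values of Bmpr1b, which passed the filter through its later, higher days, and they leave out Bmp5, Chrdl1 and Nog. The members were chosen with earlier results of these data known. Their counts and medians beside all genes are therefore a description and no test of the set.

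**Figure D1:**
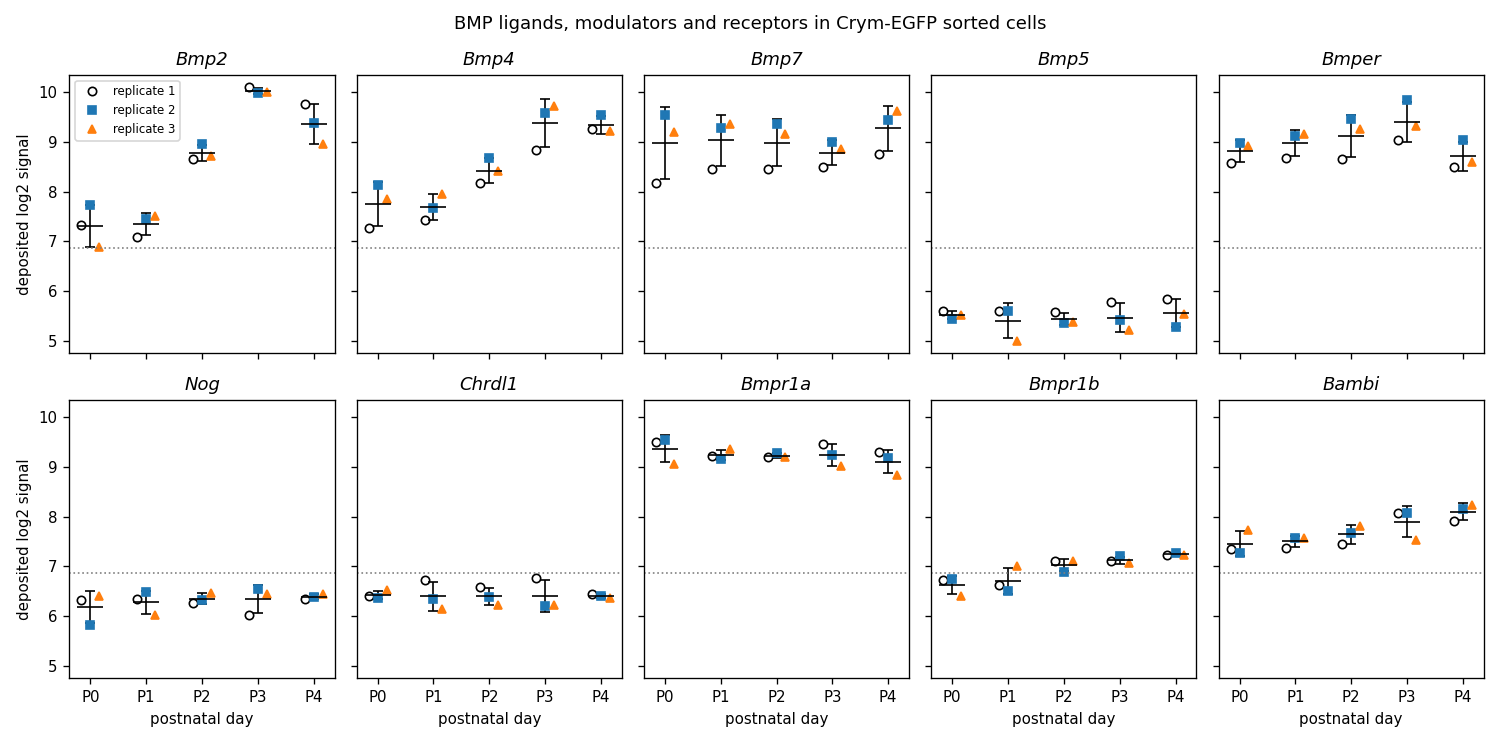
Deposited log2 signal of each of the 10 genes (vertical axis) by postnatal day (horizontal axis), with 1 symbol per sample and replicate number, a bar at the mean of 3 samples and error bars of 1 SD; the dotted line is the filter at log2 6.86. Bmp2 and Bmp4 climb from P1 to P3, Bmp7 and Bmpr1a stay within about the same range, and Bmp5, Nog and Chrdl1 lie under the line in every sample.

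Bmp2 rose between P1 and P3. Its log2 signal was 7.32, 7.73 and 6.89 in the P0 samples and 7.10, 7.46 and 7.51 in those of P1. It was 8.67, 8.97 and 8.72 at P2, then 10.10, 10.00 and 10.01 at P3, and 9.77, 9.38 and 8.97 at P4. The P0 and P1 samples overlapped, every P2 sample was above both of those days, every P3 sample was above every P2 sample, and the P4 samples lay between, reaching down to the level of P2. The means were 7.32 ± 0.42, 7.36 ± 0.23, 8.79 ± 0.16, 10.03 ± 0.06 and 9.37 ± 0.40 from P0 to P4 (SD, n = 3 each).

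The slope of Bmp2 over P0 to P3 was 0.96 log2 units per day (SE 0.07, 95% interval 0.81 to 1.11, limma adjusted p = 7.76e-06), or 1.94-fold a day. That call held with the replicate number as a block, in replicates 2 and 3 alone and without any 1 sample. The early rise of Bmp2 was known from these data when the members were chosen. The p-values for it are therefore no independent support. The steps were unequal. From P0 to P1 the difference was 0.04 (SE 0.22, limma adjusted p = 1), a pair of days between which limma called 0 of all genes (0%), with 238 at an unadjusted p under 0.05 and 0 of the 7 members among them. From P1 to P2 Bmp2 rose 2.69-fold (1.43 log2 units, SE 0.22, limma adjusted p = 0.0258), as 1 of 10 genes called (0.0841% of those tested). From P2 to P3 it rose 2.38-fold (1.25 log2 units, SE 0.22, limma adjusted p = 0.0366), as 1 of 17 genes called (0.143%).

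These 2 single steps were less secure than the slope. The P1 to P2 call was lost on leaving out any 1 of the 6 samples of those days, with an adjusted p of up to 0.214, and in replicates 2 and 3 alone (limma adjusted p = 0.191). The P2 to P3 call was lost on leaving out any 1 of the 6 samples of P2 and P3, and also P0 replicate 1, P1 replicates 2 or 3, or P4 replicate 2 (limma adjusted p up to 0.203), and in replicates 2 and 3 alone (limma adjusted p = 0.0826). In replicates 1, 2 and 3 the steps were 1.57, 1.51 and 1.21 log2 units from P1 to P2 and 1.43, 1.03 and 1.28 from P2 to P3. Because the samples of these adjacent days did not overlap, any matching of samples would give upward steps. Their direction therefore adds no support.

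At P4 Bmp2 was 2.00-fold above the mean of P0 to P3 (1.00 log2 unit, SE 0.17, limma adjusted p = 0.00208), a mean that takes in the low days P0 and P1. Against P3 alone the difference was -0.66 (SE 0.22, 95% interval -1.13 to -0.20), with an unadjusted p of 0.00867 that did not pass (limma adjusted p = 0.269), in a comparison where 1.49% of all genes were called (124 higher and 53 lower) and 0 of the 7 members. The P4 value was below the P3 value of the same number in all 3 replicates, with differences of -0.33, -0.61 and -1.04. The renal vesicle list moved beside Bmp2, with a summed log2 signal of 11.01 to 11.61 at P0, 11.03 to 11.70 at P1, 11.68 to 12.58 at P2, 12.51 to 13.31 at P3 and 12.88 to 13.65 at P4, and the part of those cells in the Bmp2 course was not tested.

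**Figure D2:**
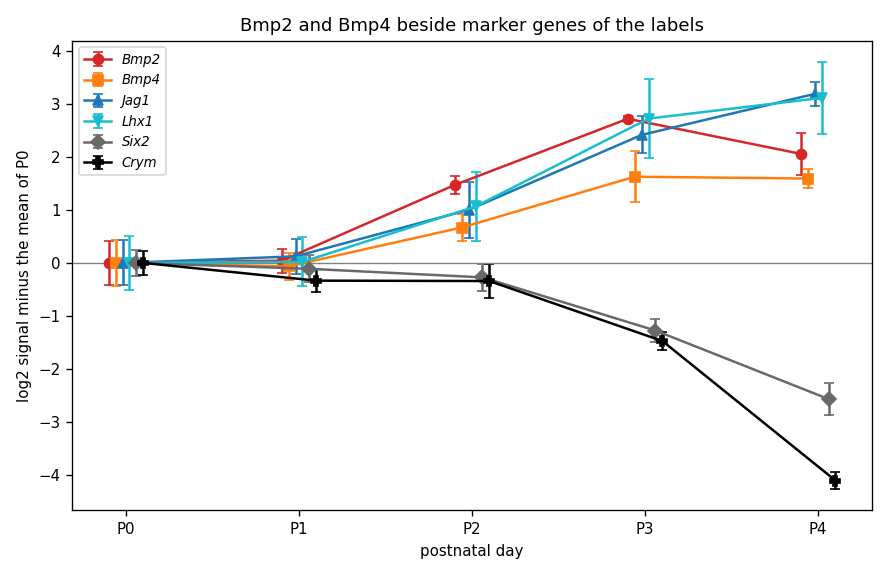
Log2 signal minus the P0 mean of the same gene (vertical axis) by postnatal day (horizontal axis) for Bmp2, Bmp4, the renal vesicle markers Jag1 and Lhx1 and the progenitor genes Six2 and Crym; points are means of 3 samples and error bars 1 SD. The means of both ligands and both vesicle markers are near the P0 level at P1 and above it at P2, and at P4 the mean of Bmp2 is below that of P3 (9.37 against 10.03) while those of Jag1 and Lhx1 are above it.

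Bmp4, a ligand of the same class as Bmp2, followed it with a smaller range. Its log2 signal was 7.27, 8.13 and 7.86 at P0 and 7.44, 7.68 and 7.96 at P1. It was 8.18, 8.68 and 8.41 at P2, then 8.84, 9.58 and 9.73 at P3, and 9.26, 9.55 and 9.23 at P4. P0 and P1 overlapped, the P2 samples were all above them and below all of P3, and the P4 samples fell inside the range of P3.

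The slope of Bmp4 was 0.56 log2 units per day (SE 0.08, 95% interval 0.39 to 0.73, limma adjusted p = 0.00139), or 1.48-fold a day, and this call too held in every alternative run. No single step passed: it was 0.73 from P1 to P2 (SE 0.25, limma adjusted p = 0.739) and 0.96 from P2 to P3 (SE 0.25, limma adjusted p = 0.227). With the replicate number as a block both passed (limma adjusted p = 0.0398 and 0.00532), and the second also passed without P3 replicate 1 (limma adjusted p = 0.0395). Bmp2 and Bmp4 were the members whose samples did not overlap between P1 and P2, where 10.7% of all genes did not overlap, nor between P2 and P3, where 8.87% did not.

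At P4 Bmp4 was 2.05-fold above the mean of P0 to P3 (1.03 log2 units, SE 0.20, limma adjusted p = 0.00469), but this did not pass once P4 replicate 2 was left out (limma adjusted p = 0.0508). Against P3 it differed by -0.03 (SE 0.25, limma adjusted p = 1), with steps of 0.42, -0.03 and -0.50 in replicates 1, 2 and 3, so the replicates went both ways.

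Of the 10 members, 5 (Bmp4, Bmp5, Bmper, Bmpr1a and Bmpr1b) matched an entry in the RefSeq promoter table used (GRCm38.p6). Bmp2, Bmp7, Chrdl1 and Nog had no usable entry. Bambi was left out of this search, so whether it has an entry was not tested. Bmp4 is shown as a ligand that rose, as the 250 bases before its listed start at chr14:46390670-46390919 (minus strand, written 5′ to 3′ on that strand). Capitals mark the motifs found among the 5 searched on both strands, which are CTTTGAT and CTTTGTT (TCF/LEF), GGCGCC (SMAD, GC-rich), GGGCGG (GC box) and CACGTG (E-box).
Bmp4: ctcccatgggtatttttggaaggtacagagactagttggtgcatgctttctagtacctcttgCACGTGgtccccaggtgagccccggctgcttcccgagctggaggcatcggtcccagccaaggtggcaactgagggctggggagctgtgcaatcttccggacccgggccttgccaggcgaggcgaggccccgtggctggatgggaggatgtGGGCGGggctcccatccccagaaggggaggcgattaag
The stretch is 63.2% G or C with 11 CpG dinucleotides. It holds 1 CACGTG, which starts 188 bases before the listed start and occurs in 6.02% of the 32851 promoters of the table, and 1 GGGCGG at 38 bases, which occurs in 32.7%. These are matches of letters and no test of binding.

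Bmp7, a ligand that the nephron progenitors make themselves, passed no test. Log2 signals of its samples were 8.18, 9.55 and 9.21 at P0, 8.45, 9.28 and 9.37 at P1, and 8.46, 9.35 and 9.17 at P2. It was 8.50, 9.002 and 8.86 at P3 and 8.75, 9.45 and 9.62 at P4. Replicate 1 was the lowest sample on all 5 days, and the days overlapped. The slope over P0 to P3 was -0.06 per day (SE 0.11, 95% interval -0.30 to 0.18, limma adjusted p = 0.934), so that a rise as steep as that of Bmp2 or Bmp4 lies outside its interval. P4 was 0.49 above P3 (SE 0.36, limma adjusted p = 0.98; 0.0887 with the replicate number as a block), and the step was upward in all 3 replicates, at 0.25, 0.45 and 0.76. P4 was 0.33 above P0 to P3 (SE 0.28, limma adjusted p = 0.77).

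Bmp5, a ligand of the Bmp7 class, ranged from 5.00 to 5.84 over the 15 samples and was below the filter in each.

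**Figure D3:**
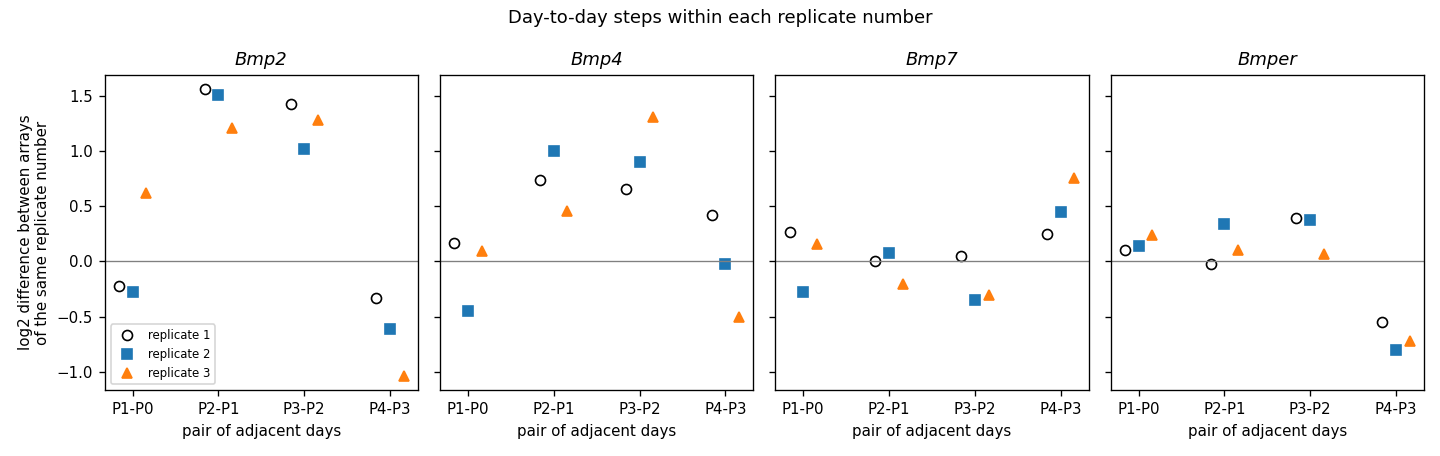
Log2 difference between samples of the same replicate number (vertical axis) for each pair of adjacent days (horizontal axis) in Bmp2, Bmp4, Bmp7 and Bmper, 1 symbol per replicate number. The Bmp2 steps from P1 to P2 and from P2 to P3 are all above 1, and the Bmper step from P3 to P4 is below 0 in each replicate.

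The early rise of Bmp2 was set beside the other members by the difference of their slopes over the 12 samples of P0 to P3, given as a description since the gene was picked for its rise. Against the ligands the Bmp2 slope was larger by 0.40 log2 units per day than that of Bmp4 (SE 0.09), by 1.02 than that of Bmp7 (SE 0.16) and by 0.97 than that of Bmp5 (SE 0.13). The difference from Bmp4 was 0.30 to 0.45 over the 3 replicate numbers, and that from Bmp7 was 0.89 to 1.18. Against the modulators it was larger by 0.77 for Bmper (SE 0.12), 0.97 for Chrdl1 (SE 0.13) and 0.90 for Nog (SE 0.15). For the receptors the difference was 1.00 for Bmpr1a (SE 0.10), 0.78 for Bmpr1b (SE 0.11) and 0.81 for Bambi (SE 0.12). Every one of the 9 differences was positive in each replicate number. For Bmp5, Chrdl1 and Nog the comparison is with a probe set below the filter.

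Bmper, a secreted protein that binds BMPs and can either hinder or aid them, was the modulator with a signal above the filter. Its log2 signal was 8.57, 8.99 and 8.91 at P0, 8.68, 9.12 and 9.15 at P1, and 8.65, 9.47 and 9.26 at P2. It was 9.05, 9.85 and 9.33 at P3 and 8.50, 9.05 and 8.60 at P4. Replicate 1 was the lowest sample on every day, P3 had the highest mean and P4 the lowest (9.41 ± 0.41 and 8.72 ± 0.29, SD, n = 3).

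Its slope over P0 to P3 was 0.19 per day (SE 0.08) and did not pass (limma adjusted p = 0.3), but did with the replicate number as a block (limma adjusted p = 0.00604). From P3 to P4 the difference was -0.69 (SE 0.24, unadjusted p = 0.0131, limma adjusted p = 0.342), and it passed with the same block (limma adjusted p = 0.00427). The P4 sample was lower than the P3 sample of its number in all 3 replicates, with differences of -0.55, -0.80 and -0.72. In replicates 2 and 3 alone neither Bmper value passed. Against the mean of P0 to P3, P4 differed by -0.37 (SE 0.19, limma adjusted p = 0.436).

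Noggin (Nog), which binds and blocks BMPs, ranged from 5.82 to 6.56, and the chordin-like inhibitor Chrdl1 from 6.15 to 6.77. Both were below the filter in all 15 samples. Tested without the filter, Bmp5, Chrdl1 and Nog passed in none of the 7 comparisons (limma adjusted p = 0.973 or higher). The P4 samples of Nog (6.34 to 6.45) and Chrdl1 (6.36 to 6.44) lay inside the range of their 12 earlier ones, while 1 P4 sample of Bmp5 (5.84) was above all of its earlier ones.

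Of the type I receptors, Bmpr1a (ALK3) passed no test. Log2 signals were 9.51, 9.55 and 9.05 at P0, 9.22, 9.16 and 9.36 at P1, and 9.21, 9.28 and 9.20 at P2. It was 9.46, 9.24 and 9.01 at P3 and 9.30, 9.18 and 8.85 at P4, and all days overlapped. The slope was -0.04 per day (SE 0.05, 95% interval -0.15 to 0.07, limma adjusted p = 0.882), and P4 differed from P0 to P3 by -0.16 (SE 0.13, 95% interval -0.43 to 0.11, limma adjusted p = 0.728).

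Bmpr1b (ALK6) was close to the filter, above it on 10 of 15 arrays, and rose by a small amount. Its log2 signal was 6.72, 6.75 and 6.41 at P0, 6.62, 6.50 and 7.0 at P1, and 7.10, 6.90 and 7.10 at P2. It was 7.11, 7.21 and 7.07 at P3 and 7.24, 7.26 and 7.23 at P4. The P0 samples lay below all those of P2 and later days, P1 replicate 3 overlapped with P2, and all 3 P4 samples were above all 12 earlier ones, as 3.78% of all genes were entirely above or below. It was the single member to separate in this way.

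The slope of Bmpr1b was 0.18 per day (SE 0.04, limma adjusted p = 0.0362). All 3 P0 samples and 2 of the 3 P1 samples were below the filter, which the gene passed through its later, higher days, and with no filter the slope did not pass (limma adjusted p = 0.0532). This call and that of the F test depended on single samples. The slope was lost with any 1 of 12 samples left out (the exceptions were P2 replicate 2, P1 replicate 3 and P4 replicate 1), with an adjusted p of up to 0.153, and in replicates 2 and 3 alone (limma adjusted p = 0.131). The F test was lost with any 1 of 13 samples left out (the exceptions were P2 replicate 2 and P1 replicate 3), with an adjusted p of up to 0.107. P4 was 0.37 above P0 to P3 (SE 0.11) and did not pass (limma adjusted p = 0.0726). It passed without P1 replicate 3 (limma adjusted p = 0.0254), with the replicate number as a block (0.0358) and with the first replicates against the others as a block (0.0326). Within replicate numbers the P4 excess was 0.35, 0.42 and 0.33.

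The promoters of the receptors are printed as a pair, the one that rose and the one that passed no test, in the same form and with the same motifs in capitals. They lie at chr3:141982265-141982514 and chr14:34502547-34502796 (GRCm38.p6), both on the minus strand.
Bmpr1b: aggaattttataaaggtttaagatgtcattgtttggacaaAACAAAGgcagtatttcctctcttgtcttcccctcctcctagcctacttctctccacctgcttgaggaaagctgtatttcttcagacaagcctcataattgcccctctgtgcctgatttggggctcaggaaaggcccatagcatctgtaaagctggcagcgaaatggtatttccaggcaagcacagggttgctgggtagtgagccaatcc
Bmpr1a: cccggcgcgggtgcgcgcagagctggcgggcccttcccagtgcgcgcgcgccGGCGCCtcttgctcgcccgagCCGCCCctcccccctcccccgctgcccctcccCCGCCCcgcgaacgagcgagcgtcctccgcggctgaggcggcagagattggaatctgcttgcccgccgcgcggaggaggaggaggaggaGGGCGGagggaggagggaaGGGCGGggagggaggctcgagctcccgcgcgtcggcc
They differ in base composition, at 46.8% G or C with 1 CpG in Bmpr1b and 78.8% with 36 CpG in Bmpr1a. The Bmpr1b stretch holds 1 CTTTGTT on the opposite strand, 210 bases before the start. Bmpr1b has 3 listed starts, and the promoter of each holds 1 CTTTGTT, a motif in 5.03% of all promoters. The stretches of the other 2 starts overlap and share the same match, so that there are 2 separate matches and not 3. The arrays do not tell which start was used. The Bmpr1a stretch holds 4 GGGCGG and 1 GGCGCC, the latter found in 9.59% of all promoters. CTTTGAT, found in 3.21% of all promoters, is in none of the 3 sequences printed.

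Bambi, the pseudoreceptor without a kinase, was higher on the later days by amounts near the threshold. The log2 signals were 7.36, 7.27 and 7.74 at P0, 7.37, 7.57 and 7.56 at P1, and 7.45, 7.68 and 7.82 at P2. It was 8.07, 8.08 and 7.54 at P3 and 7.92, 8.15 and 8.24 at P4. Of the P4 samples, 2 were above all 12 earlier ones, and P3 replicate 3 lay within the range of the P1 samples. The slope was 0.15 per day (SE 0.05, limma adjusted p = 0.236). P4 was 0.48 above P0 to P3 (SE 0.14, limma adjusted p = 0.0567), a difference upward in all 3 replicate numbers (0.36, 0.50 and 0.57), and it passed without P0 replicate 3 or P3 replicate 3 (limma adjusted p down to 0.0335) and after quantile normalization (limma adjusted p = 0.0267).

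**Figure D4:**
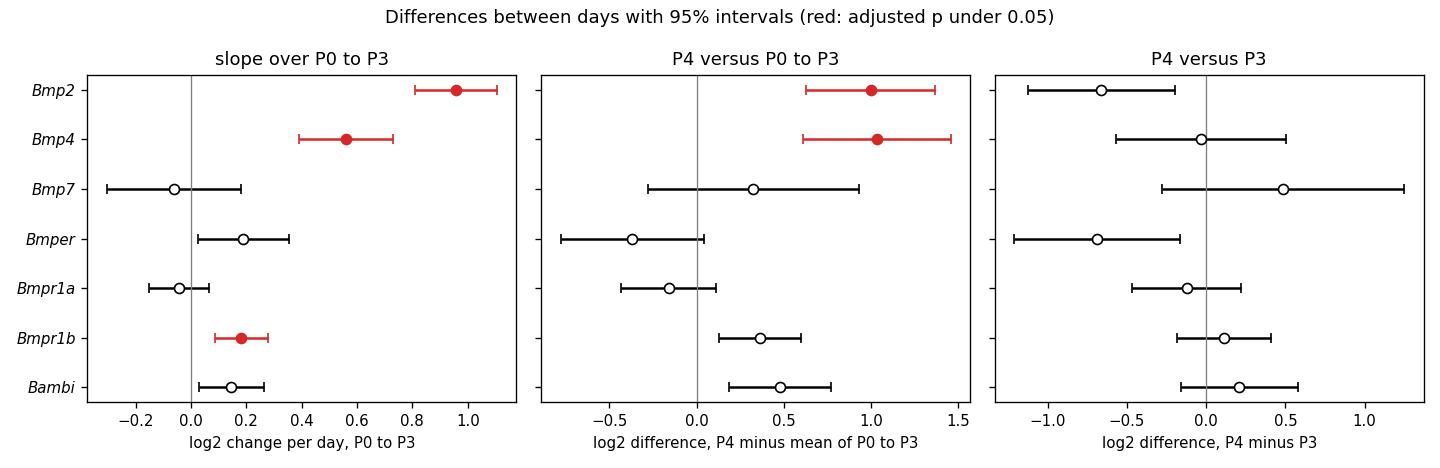
Log2 change per day over P0 to P3 (left), log2 difference of P4 from the mean of P0 to P3 (middle) and of P4 from P3 (right) on the horizontal axes for the 7 members tested; points are estimates from 15 samples, bars 95% intervals, and filled red points have a limma adjusted p under 0.05. Bmp2, Bmp4 and Bmpr1b are called for the slope, Bmp2 and Bmp4 for P4 against P0 to P3, and no member for P4 against P3.

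The rest of the pathway was read from lists of other ligands, extracellular modulators, receptors, intracellular components and target genes. Of 16 other ligands of the BMP and GDF class on the array, 6 were tested and 0 were called by limma for the slope or for P4 against P0 to P3, where 3.13% and 5.73% of all genes were called. Of 15 other receptors and co-receptors 11 were tested, and limma likewise called 0 for either, although Acvr2a, a type II receptor, passed at P4 with the replicate number as a block, downward. At these numbers of genes a count of 0 is near the share over all genes.

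Among 12 other extracellular modulators tested, 2 were higher and 1 lower at P4 than over P0 to P3. Of all genes tested, 5.73% were called in that comparison. Fstl1, a secreted follistatin-like protein, rose by 1.19 log2 units (SE 0.13, limma adjusted p = 4.34e-05), with P4 samples at 9.42, 9.83 and 9.75 against 7.998 to 8.93 on the earlier days, and its step from P3 to P4 also passed (1.01, limma adjusted p = 0.00505). Crim1, a transmembrane protein with chordin-type repeats that binds BMPs, rose by 0.89 (SE 0.19, limma adjusted p = 0.012), but not once P4 replicate 2 was left out (limma adjusted p = 0.127). The glypican Gpc3 fell by 0.41 (SE 0.10, limma adjusted p = 0.0184), but not once P4 replicate 3 was left out (limma adjusted p = 0.161) or in replicates 2 and 3 alone (limma adjusted p = 0.0743). From P3 to P4 neither Crim1 (0.21, SE 0.25) nor Gpc3 (-0.34, SE 0.12, limma adjusted p = 0.357) passed.

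Along P0 to P3, Crim1 rose by 0.32 per day (SE 0.08, limma adjusted p = 0.0358) and Nbl1, a secreted BMP antagonist of the DAN family, fell by 0.22 per day (SE 0.05, limma adjusted p = 0.0298). They were 2 of the 12 modulators tested, where 3.13% of all genes had a slope that was called. The Crim1 slope was lost on leaving out any 1 of 10 samples (the exceptions were those of P4, P3 replicate 1 and P2 replicate 1; limma adjusted p up to 0.142), and that of Nbl1 without P0 replicates 2 or 3, P1 replicate 2, or P3 replicates 1 or 3 (limma adjusted p up to 0.118).

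Of 16 intracellular transducers and inhibitors, all tested, Tob1, an antiproliferative protein that represses SMAD signalling, fell by 0.31 per day over P0 to P3 (SE 0.06, limma adjusted p = 0.0165), a call lost without P0 replicates 2 or 3 or P3 replicate 3 (limma adjusted p up to 0.0727). Smad5 fell by 0.38 at P4 (SE 0.10, limma adjusted p = 0.027), a call lost without P4 replicates 2 or 3 (limma adjusted p up to 0.231) or after quantile normalization (limma adjusted p = 0.0761). Each was the 1 gene of 16 called in its comparison, where 3.13% (slope) and 5.73% (P4) of all genes were called, so both counts are near those shares. The Smad5 step from P3 to P4 did not pass (-0.28, SE 0.12, limma adjusted p = 0.591). With the replicate number as a block the slopes of Smad7, an inhibitory SMAD, and Smad9 also passed, upward, where 8.49% of all genes were called.

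Of 11 target genes tested, 0 had a slope that passed in limma, where 3.13% of all genes did. Hey1, Id2 and Id3 passed upward with the replicate number as a block, where 8.49% of all genes did. At P4 against P0 to P3, 2 of the 11 passed, Gata3 and Id4, both higher, where 5.73% of all genes were called. Gata3, which is also a marker of the ureteric bud, was at 7.57, 8.34 and 8.20 at P4 against 5.74 to 6.41 on all earlier days, a difference of 1.88 (SE 0.16, limma adjusted p = 3.88e-06). It was below the filter on all 12 earlier arrays and entered the test through P4 alone. Hey1, a transcriptional repressor, was 1.04 higher (SE 0.31) and did not pass (limma adjusted p = 0.0707), but did in replicates 2 and 3 alone. Id4, an inhibitor of helix-loop-helix factors, was 0.49 higher (SE 0.13, limma adjusted p = 0.0494), a call lost on leaving out any 1 of 12 samples (the exceptions were P3 replicate 2, P2 replicate 1 and P1 replicate 2, limma adjusted p up to 0.184). The Id4 step from P3 to P4 did not pass with any 1 sample left out (limma adjusted p at least 0.408).

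The genes whose course was most like that of each member were ranked by Pearson's r over the 15 arrays, after the mean of each replicate number was subtracted. For Bmp2 they were Lama4, a laminin chain (r = 0.990), the cyclin Ccnd1 (r = 0.970) and the RNA-binding protein Khdrbs3 (r = 0.966). For Bmp4 they were Papss2, an enzyme of sulfate activation (r = 0.981), Ccnd1 (r = 0.977) and Rai14 (r = 0.977). Ccnd1 was thus near both ligands, and it stands in the renal vesicle list.

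Lama4 had means of 8.61 at P0, 10.64 at P3 and 10.17 at P4, and so was lower at P4 than at P3 in its mean, as Bmp2 was. Papss2 went from 6.55 to 8.92 and 8.93. The nearest genes to Bmper were Slc23a2 (r = 0.944), Adam23 (r = 0.914) and Rora (r = 0.899). Adam23, a member of the disintegrin family, had means of 7.09 at P0, 7.92 at P3 and 6.68 at P4.

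For Bmpr1b they were Nsd2 (r = 0.937), Nasp (r = 0.932) and Casp8 (r = 0.924), and for Bambi Nkd2, a Wnt antagonist (r = 0.918), Hsd17b14 (r = 0.916) and Abcc4 (r = 0.910). Bmp7 was nearest to Polr1e (r = 0.912), Pmm1 (r = 0.864) and Tmbim6 (r = 0.839), and Bmpr1a to Eif2a (r = 0.945), Glrx3 (r = 0.922) and Usp37 (r = 0.916). Among the members themselves r was 0.951 between Bmp2 and Bmp4, 0.851 between Bmp2 and Bmpr1b, 0.843 between Bmp4 and Bmpr1b, and -0.66 between Bmp7 and Bmper. For Bambi r was 0.691 with Bmp4, 0.659 with Bmp2 and 0.644 with Bmpr1b. All these values share the 5 days and the same 15 arrays, and they are given without a test.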

How the data were processed

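RNA of the sorted cells went through 1 round of WT-Ovation Pico amplification and was hybridised to 1-colour Affymetrix arrays. The authors deposited 1 table of 35557 probe sets for 15 samples, with log2 signals for which the labels name Affymetrix Expression Console. Version, summarization and background correction are not given in those sources, and signal kept from background would make the differences of dim genes too small. The values (2.38 to 13.76) were used as deposited.

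Names came from the platform's probe table, where 21789 probe sets had 1 symbol, 1621 had several and 12147 were not listed. Of the first, 21698 matched a current gene. Several probe sets were present for 999 of 19938 genes, which were then read from the brightest on average. The filter on low values required log2 6.86, the overall median, on at least 3 arrays and left 11885 genes.

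Samples were grouped by the day in their labels. In limma 3.58.1 (R 4.3.3) all samples entered 1 linear model of 5 day means, with eBayes moderation and p-values adjusted by Benjamini-Hochberg across those genes, two-sided, with a threshold of 0.05. The contrasts were an F test over all days, the slope over P0 to P3, P4 against the mean of P0 to P3, and each adjacent pair of days. Each sample is a pool, and nothing in the labels ties pools to litters, so that the p-values cover only the spread among these pools. The number of arrays limits the precision.

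The first sample of each day has no number in its title and was taken as replicate 1. Deviations from the day means correlated between same-numbered samples in 18 of 18 pairs among P0 to P3 (r = 0.138 to 0.797) and in 29 of 30 over all days by more than 0.1 (lowest r = 0.0782). Samples of different numbers were not compared in this way, and the first replicates stood apart as a set. These values therefore cannot tell pairing by number from a difference between the first replicates and the others. The numbers were taken as a possible pairing for contrasts within P0 to P3 and between adjacent days. The main model nonetheless held no term for the replicate number, so its p-values are unpaired. The pairing entered the tests only through the replicate block, an alternative under which several calls changed. No 2 arrays held identical values (highest r = 0.990).

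Named genes were the members, of each other list the genes that passed, and the 3 genes most correlated with each member. The members and lists were chosen with earlier results of these data known. Alternatives were the replicate block, the first replicates against the others as a block, replicates 2 and 3 alone, median centring, quantile normalization, other filters, other probe sets, other eBayes settings and leaving out each sample.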

Additional observations from a re-analysis of the deposited data

How the results depend on the processing

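Of 1176 member results under the alternatives, 1097 kept their side of the threshold, 53 lost the call, 26 gained it and 0 called values reversed. Most of the 1176 were uncalled in the main run and could not lose a call, so the 1097 do not measure how stable the calls were. Each member has 1 probe set, so the run with other probe sets left its values unchanged. Of the 1097, 31 were uncalled values whose sign changed. With the replicate number as a block, the genes called were 1483 against 638 in the F test (5 members against 3), 1009 against 372 for the slope, 1435 against 681 for P4 against P0 to P3 (5 members against 2), 20 against 0 for P1 against P0, 114 against 10 for P2 against P1 (2 members against 1), 144 against 17 for P3 against P2 (2 members against 1) and 422 against 177 for P4 against P3 (1 member, Bmper, against 0). The members gained at P4 against P0 to P3 under the replicate block were Bmper (lower, limma adjusted p = 0.0203), Bmpr1b (0.0358) and Bambi (0.022), and in the F test Bmper (0.00715) and Bambi (0.045). Of the other pathway genes the same block added at P4 against P0 to P3 the target genes Hey1, Id1 and Id3 (higher) and Id2 (lower), the receptor Acvr2a (lower) and Tob1 (lower). For those comparisons 1 of 30 pairs missed the limit for pairing. With the first replicates against the others as a block the counts were 1386, 918, 1363, 19, 103, 146 and 398 in the same order, with 5, 5, 2, 2 and 1 members called in the F test, P4 against P0 to P3, P2 against P1, P3 against P2 and P4 against P3.

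Median centring gave 2 genes for P2 against P1 and 8 for P3 against P2, with 0 members in both. Bmp2 then had limma adjusted p = 0.0836 and 0.0799. Quantile normalization gave 3 genes for P1 against P0, 46 for P2 against P1 and 43 for P3 against P2. Replicates 2 and 3 alone gave 1 gene and 0 members for P2 against P1, and 83 genes for P3 against P2. With no filter on low values 0 members passed for P3 against P2 (Bmp2, limma adjusted p = 0.0566), and Bmpr1b lost the slope (0.0532) and the F test (0.0556), as it did with median centring (0.0581 and 0.0719). Leaving out each sample gave 462 to 652 genes for the F test, 183 to 381 for the slope, 417 to 771 for P4 against P0 to P3 (1 to 3 members), 0 to 2 for P1 against P0, 0 to 23 for P2 against P1 and 1 to 55 for P3 against P2 (0 to 1 members in both), and 99 to 187 for P4 against P3. The slope of Bmp2 minus that of Bmp7 was then 0.94 to 1.18. The cause of these shifts was not tested. Signals of Bmp5, Chrdl1 and Nog under the filter, and of Bmpr1b at it, limit what could be read of them.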
